A study of Mus musculus with 7 samples.

Results

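Adipogenic transcription factors, the DNA-binding proteins that commit precursor cells to the adipocyte lineage and switch on the genes of the fat cell, were followed in tumors that grew from mouse embryonic fibroblasts (MEFs). The 10 members were taken by name, Pparg, Cebpa, Cebpb, Cebpd, Srebf1, Ebf1, Ebf2, Klf15, Zfp423 and Rxra, as the Ensembl genes that carry these symbols in the GENCODE M21 annotation. They are 10 of 46603 genes in the count data, and all 10 were among the 16887 genes with enough reads to be tested. The RNA-seq libraries were made from 3 pieces labelled NM1 KO (called KO 01 to 03) and 4 pieces labelled KO+NM1 (called KO+NM1 01 to 04). Both groups carried the same deletion of nuclear myosin 1 (NM1), made with CRISPR/Cas9 in a wild-type MEF line, and the KO+NM1 cells carried in addition a lentivirus for tagged NM1 (NM1-HA-V5) and had been selected with neomycin, with single clones tested for the tag. All hosts were female nude mice (Balb/c in the text of the study), 16 weeks old, which lack most T cells but keep other host cells, and 15 mice were injected, 5 for each cell type, and followed for up to 30 days by the labels, and for a slightly shorter time by the methods. The injection site is the right flank in the labels and the study's methods and the mammary pad in its results. Mice given wild-type cells are not analysed here. The labels describe 1 tumor of each kind cut into 4 pieces, so every standard deviation and every test below covers the spread between pieces and not between mice, unless more tumors were used. The comparison was the one the study made, KO against KO+NM1 tumor tissue.

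In adipogenesis, Zfp423, Ebf1 and Ebf2 mark or commit the precursor cells, C/EBPβ (Cebpb) and C/EBPδ (Cebpd) are induced early, and these lead to PPARγ (Pparg) and C/EBPα (Cebpa), which maintain each other and bind most adipocyte genes. PPARγ binds DNA as a heterodimer with RXRα (Rxra). SREBP1 (Srebf1) drives genes of fatty acid synthesis and KLF15 (Klf15) genes of glucose uptake and amino acid use, and both also act in other tissues. Adipocytes of a mouse can also lie beside a tumor, and gene counts do not separate injected from host cells.

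Because the members moved in one direction, the promoters of these genes were searched for the binding letters of factors among the members. RefSeq sequence (GRCm38.p6) held 15 transcription starts for 8 of the 10 members, and none for Cebpd and Ebf2. In the 250 bases before each start, both strands were searched for TTGCNNAA (C/EBP), AGGTCA (a hexamer bound by nuclear receptors such as PPARγ and RXRα), CCCNNGGG (EBF) and CACGTG (an E-box, which SREBP1 can bind). These motifs do not contain one another. Of the 15 member promoters, 2 held TTGCNNAA, 4 held AGGTCA, 3 held CCCNNGGG and 1 held CACGTG. Among all 32851 promoters of the same length the shares were 9.56%, 14.0%, 11.8% and 6.02%. A match is a description of letters, not of binding. The promoters shown are those of the member with the largest difference between the groups (Pparg, at a start inside the gene with 2 C/EBP matches), of the other gene with a C/EBP match (Zfp423), of the gene with the E-boxes (Klf15), and of the member that was not called different (Cebpb). Each is written 5′ to 3′ on the strand of its gene with the matches in capitals.
Pparg, chr6:115421816-115422065, plus strand: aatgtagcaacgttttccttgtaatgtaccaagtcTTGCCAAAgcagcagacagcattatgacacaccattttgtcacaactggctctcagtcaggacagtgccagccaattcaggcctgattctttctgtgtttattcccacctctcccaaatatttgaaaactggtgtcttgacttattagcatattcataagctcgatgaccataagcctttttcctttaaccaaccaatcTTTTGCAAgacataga
Zfp423, chr8:87959596-87959845, minus strand: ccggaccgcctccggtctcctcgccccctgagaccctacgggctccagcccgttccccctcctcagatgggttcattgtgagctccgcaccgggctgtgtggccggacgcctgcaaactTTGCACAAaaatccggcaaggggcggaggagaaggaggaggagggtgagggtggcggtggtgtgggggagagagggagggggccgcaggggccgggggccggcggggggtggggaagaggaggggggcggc
Klf15, chr6:90462326-90462575, plus strand: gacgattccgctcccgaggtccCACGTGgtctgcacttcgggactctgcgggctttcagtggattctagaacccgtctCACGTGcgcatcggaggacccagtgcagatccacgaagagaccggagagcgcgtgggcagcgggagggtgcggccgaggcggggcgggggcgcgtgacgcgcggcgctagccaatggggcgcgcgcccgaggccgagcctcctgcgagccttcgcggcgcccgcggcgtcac
Cebpb, chr2:167688665-167688914, plus strand: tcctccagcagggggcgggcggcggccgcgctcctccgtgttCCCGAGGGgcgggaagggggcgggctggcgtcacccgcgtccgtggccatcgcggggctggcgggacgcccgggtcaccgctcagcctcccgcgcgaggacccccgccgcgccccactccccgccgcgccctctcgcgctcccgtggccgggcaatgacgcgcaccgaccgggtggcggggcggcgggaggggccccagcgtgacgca
None of these 4 stretches lies in an exon of its gene in GENCODE M21. The Pparg stretch differs from the others in base composition, with 40.8% G and C against 71.6% in Zfp423, 72.0% in Klf15 and 81.6% in Cebpb. The promoter of Cebpa held none of the 4 motifs. Counts per gene do not separate the 3 Pparg starts, so the values below are sums over them.

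Reads counted on genes numbered 24088309 to 28326568 in each piece, and values are given as CPM, the counts of a gene relative to the TMM-scaled total of its library. A count of 0 allows up to 3 counts, or 0.0991 to 0.148 CPM, for counting error only. Genes of the mitochondrial genome took 1.81% to 2.14% of the reads in KO pieces and 5.11% to 18.5% in KO+NM1 pieces, with the highest share in piece 03, and with these genes left out the same number of factors, 9, was lower. Myo1c, the gene that encodes NM1 as one isoform, reached 289 to 313 CPM in KO pieces and 382 to 438 CPM in KO+NM1 pieces (log2 fold change -0.43, adjusted p = 0.031, edgeR), and counts per gene cannot show the deletion. The pieces were not alike within a group. The sum of 8 white adipocyte markers was 32.9 to 185 CPM in KO pieces, while KO+NM1 piece 01 had 3970 CPM and pieces 02 to 04 had 21647 to 30459 CPM. KO+NM1 piece 01 also had 5615 CPM of 8 B cell markers, against 4.03 to 49.3 CPM in the other 6 pieces. The sum of 10 skeletal muscle markers was 2331 CPM in KO 01, 15170 CPM in KO 03 and 19157 CPM in KO 02, and 14.3 to 77.1 CPM in KO+NM1 pieces. All 8 genes of the fibroblast and adipocyte progenitor list were detected in both groups, at sums of 3986 to 6642 CPM in KO and 1597 to 5743 CPM in KO+NM1 pieces, of which Col1a1 alone made the larger part in the KO pieces. Results are therefore also given without KO+NM1 piece 01.

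Of the 10 factors, 9 were lower in KO tissue and none was higher. A gene was called when its adjusted p was under 0.05 and its change 2-fold or more, and over all genes tested 20.3% were lower and 17.1% higher by this rule, 37.3% in all. The median log2 fold change (KO minus KO+NM1) of the 10 was -3.86, against 0.00 over all genes tested. In 9 of them the highest KO piece was under the lowest KO+NM1 piece, which held for 26.4% of all genes, and the reverse held for 30.5%. The exception to both counts was Cebpb. Without KO+NM1 piece 01 all 10 were lower at both thresholds, where 25.1% of genes were lower and 21.7% higher, and the median was -4.23. When edgeR tested for a change beyond 2-fold (glmTreat), 6 of the 10 passed, all lower, as did 12.3% of genes, and those that did not were Cebpb, Cebpd, Srebf1 and Rxra. In a bulk sample, fewer cells of a type and less RNA per cell cannot be told apart, and the sums of white adipocyte markers given above moved with the members. Their part in these differences was not tested.

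**Figure D1:**
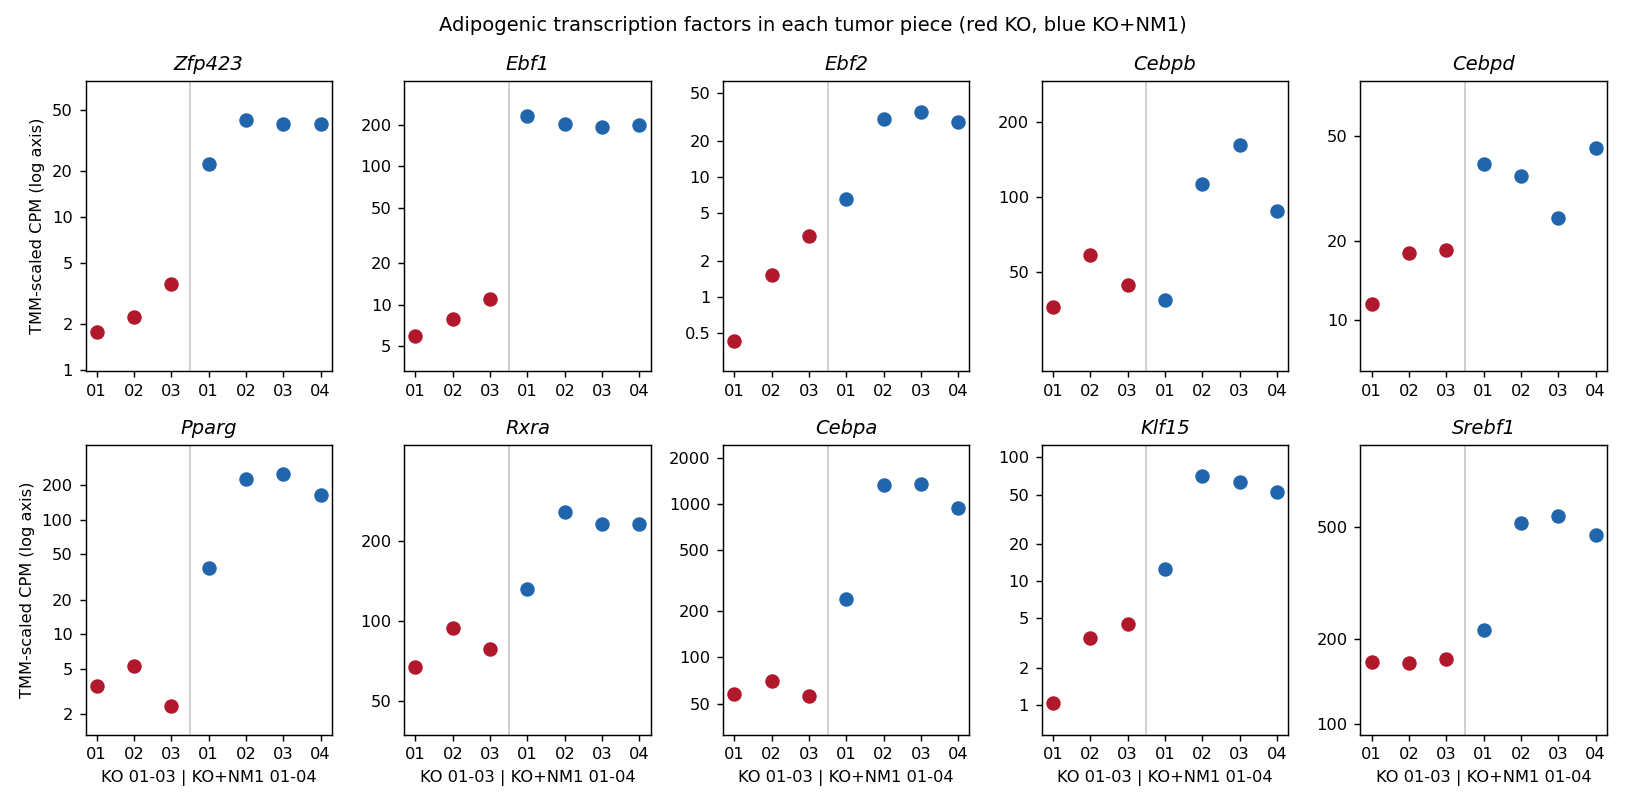
TMM-scaled CPM on a log axis for each of the 10 factors, with 1 point per tumor piece (red KO 01 to 03, blue KO+NM1 01 to 04). All blue points lie above all red points except for Cebpb, and KO+NM1 01 is the lowest blue point in 8 of the 10 panels, the exceptions being Ebf1 and Cebpd.

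Pparg (ENSMUSG00000000440, chromosome 6, 115360951 to 115490399, plus strand) encodes the nuclear receptor without which adipocytes do not form. It was counted at 3.50, 5.28 and 2.38 CPM in KO pieces 01 to 03 and at 38.2, 226, 252 and 163 CPM in KO+NM1 pieces 01 to 04. The groups were far apart, and piece 01 stood between the KO pieces and the other 3 KO+NM1 pieces. The means were 3.72 ± 1.47 CPM (SD, n = 3) and 170 ± 95.2 CPM (SD, n = 4). The log2 fold change was -5.51 (standard error 0.60, adjusted p = 0.00148, edgeR), the largest in size among the members. These values rest on 72 to 152 reads in KO pieces and 1048 to 5548 reads in KO+NM1 pieces. Without KO+NM1 piece 01 the log2 fold change was -5.97 (adjusted p = 1.4e-05).

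Rxra (ENSMUSG00000015846, chromosome 2, 27676440 to 27762957, plus strand), the partner receptor of PPARγ and of many other nuclear receptors, differed less. Its levels were 66.9, 94.3 and 78.5 CPM in KO pieces and 131, 256, 232 and 231 CPM in KO+NM1 pieces. The groups did not overlap, and KO+NM1 pieces 02 to 04 were close to each other. The log2 fold change was -1.41 (standard error 0.25, adjusted p = 0.00445, edgeR), or 2.66-fold lower in KO, against 45.6-fold lower for Pparg.

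Cebpa (ENSMUSG00000034957, chromosome 7, 35119293 to 35121928, plus strand), which sustains Pparg and many adipocyte genes and is also used by liver and myeloid cells, had 58.1, 70.6 and 56.3 CPM in KO pieces. In KO+NM1 pieces it had 241, 1334, 1358 and 948 CPM. KO pieces were tightly grouped, with a coefficient of variation of 12.6%, and KO+NM1 piece 01 was again intermediate. Its means of 61.7 ± 7.79 CPM (SD, n = 3) and 970 ± 521 CPM (SD, n = 4) were -3.98 apart on the log2 scale of the fit (standard error 0.53, adjusted p = 0.00237, edgeR). Macrophage markers, which also come from myeloid cells, had sums of 2844 to 3243 CPM in KO and 455 to 655 CPM in KO+NM1 pieces. The part of myeloid cells in the Cebpa values was not tested.

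Cebpb (ENSMUSG00000056501, chromosome 2, 167688915 to 167690418, plus strand) encodes an early inducer of adipogenesis that also responds to inflammatory signals in many cells. It was at 36.1, 58.4 and 44.4 CPM in KO pieces and at 38.6, 113, 162 and 88.2 CPM in KO+NM1 pieces. Piece 01 of the KO+NM1 group lay within the KO range and the other 3 lay above it. Its log2 fold change, -1.12 (standard error 0.45), missed the threshold at an adjusted p of 0.0794 (edgeR). Without KO+NM1 piece 01 it was -1.52 (adjusted p = 0.00192, edgeR), and it also passed with the Wald test of DESeq2 (-1.23, adjusted p = 0.0255) and with limma's voom with quality weights (-1.25, adjusted p = 0.000583), so the call on Cebpb depended on the test and on 1 piece.

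Cebpd (ENSMUSG00000071637, chromosome 16, 15887286 to 15891031, plus strand), the other early C/EBP gene, had 11.6, 18.0 and 18.6 CPM in KO pieces and 39.1, 35.2, 24.4 and 44.8 CPM in KO+NM1 pieces. No KO piece reached a KO+NM1 piece, but the nearest pair, KO 03 and KO+NM1 03, was close. Its log2 fold change was -1.16 (standard error 0.26, adjusted p = 0.0109, edgeR), and with voom it was just under 2-fold (-0.99, adjusted p = 0.00122). Unlike the other members apart from Ebf1, Cebpd was as high in KO+NM1 piece 01 as in pieces 02 to 04, whose mean was 0.891 times that of piece 01. Both genes share exon bases with a gene on the opposite strand, Cebpb 312 bases with Tmem189 and Cebpd 562 bases with Spidr, and reads there cannot be told apart without strand, which the sources used here do not state for the counting.

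Per kilobase of exon, the 3 C/EBP genes made up different shares of their summed CPM in the 2 groups. Cebpb held the largest share in each KO piece, with 48.9%, 55.1% and 52.9%, and Cebpa the next, with 44.8%, 38.0% and 38.2%. In KO+NM1 pieces Cebpa held 71.7%, 85.7%, 81.8% and 83.6%, and Cebpb 20.1%, 12.8%, 17.1% and 13.6%. The groups did not overlap in either share. The mean share of Cebpa was 40.4% ± 3.87 (SD, n = 3) in KO and 80.7% ± 6.17 (SD, n = 4) in KO+NM1 pieces, and 83.7% ± 1.91 (SD) over KO+NM1 pieces 02 to 04. Cebpd held 6.29% to 8.87% in KO pieces, 8.17% in KO+NM1 piece 01 and 1.03% to 2.78% in pieces 02 to 04. No test was run on these shares.

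**Figure D2:**
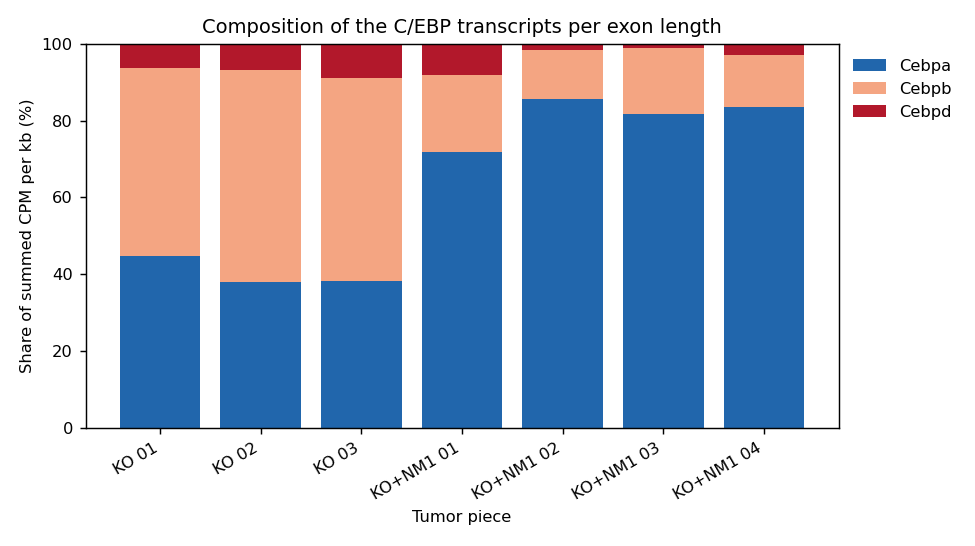
Share (%) of Cebpa, Cebpb and Cebpd in their summed CPM per kilobase of merged exons, with 1 stacked bar per tumor piece. Cebpa took 38.0% to 44.8% of the sum in KO pieces and 71.7% to 85.7% in KO+NM1 pieces, with the lowest of the latter in piece 01.

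Zfp423 (ENSMUSG00000045333, chromosome 8, 87661810 to 87959595, minus strand), a zinc finger gene that marks preadipocytes and perivascular cells and raises Pparg, was at 1.77, 2.22 and 3.67 CPM in KO pieces. It was at 22.2, 43.3, 40.5 and 40.9 CPM in KO+NM1 pieces. The groups were separate by several times the spread within them, and piece 01 was the lowest of its group. The log2 fold change was -3.84 (standard error 0.33, adjusted p = 0.000601, edgeR). Pericyte markers, a list of 5 genes of the perivascular cells, summed to 121 to 180 CPM in KO and 456 to 981 CPM in KO+NM1 pieces, again with piece 01 lowest, and their part in the result was not tested.

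Ebf1 (ENSMUSG00000057098, chromosome 11, 44617317 to 45008091, plus strand) acts in adipocyte precursors and is also a defining factor of B cells. Its values were 5.93, 7.86 and 11.0 CPM in KO pieces and 231, 202, 193 and 201 CPM in KO+NM1 pieces, an even level within the KO+NM1 group with a coefficient of variation of 7.99%. Its log2 fold change was -4.64 (standard error 0.22, adjusted p = 0.000219, edgeR), with the smallest standard error of the 10 members. The highest value came from piece 01, in which the B cell markers Pax5 and Cd79a reached 621 and 1287 CPM, against means of 1.33 and 2.55 CPM in pieces 02 to 04. In those 3 pieces Ebf1 had 199 ± 4.99 CPM (SD), and the log2 fold change without piece 01 was -4.71 (adjusted p = 8.52e-06, edgeR). The sum of the 8 B cell markers in those pieces was 4.03 to 20.9 CPM, against 9.97 to 49.3 CPM in KO pieces. The part of B cells in the Ebf1 values was not tested.

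Ebf2 (ENSMUSG00000022053, chromosome 14, 67233292 to 67430918, plus strand), a factor of preadipocytes and of the brown fat program, was the least abundant member. It had 13, 44 and 97 reads in KO pieces, or 0.433, 1.53 and 3.20 CPM, and 6.64, 30.7, 35.2 and 28.8 CPM in KO+NM1 pieces. KO pieces differed among themselves more than for any other member, over 2.69 on the log2 scale, and KO+NM1 piece 01 was the nearest of its group to them. The log2 fold change was -3.87 (standard error 0.74, adjusted p = 0.00872, edgeR). Brown adipocyte markers summed to 12.4 to 42.4 CPM in KO pieces and to 440, 992, 3856 and 468 CPM in KO+NM1 pieces 01 to 04, and their part in the Ebf2 values was not tested. The markers of fibroblasts and adipocyte progenitors moved with the 3 precursor factors in most of their genes. Of the 8, 6 were lower in KO tissue at both thresholds, against 20.3% of all genes tested. The median over the list was -1.52, or -1.83 without KO+NM1 piece 01. The lower genes were Dcn (-2.72), Pi16 (-2.43), Cd34 (-1.97), Pdgfrb (-1.58), Pdgfra (-1.47) and Dpp4 (-1.38). With all pieces Col1a1 (1.42, adjusted p = 0.0514) and Ly6a (0.49, adjusted p = 0.0903) did not pass. Without KO+NM1 piece 01, 6 genes were again lower, but Col1a1 was higher in KO at both thresholds (1.02, adjusted p = 0.0204, edgeR). Col1a1 passed as higher in 4 of 16 alternatives, the others being DESeq2's Wald test (1.32), voom (1.21) and library size alone (1.62). Pi16, Dpp4 and Pdgfra each lost their call in some alternatives. The part of progenitor cells in the levels of Zfp423, Ebf1 and Ebf2 was not tested.

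Klf15 (ENSMUSG00000030087, chromosome 6, 90462576 to 90475238, plus strand), also used by muscle and liver, was at 1.03, 3.48 and 4.49 CPM in KO pieces and at 12.6, 70.5, 63.3 and 52.8 CPM in KO+NM1 pieces. The groups did not overlap. KO 01 was the lowest KO piece in Klf15 and in the sum of muscle markers. It was also the lowest in every other marker list except the progenitor and keratinocyte lists. KO 02 had more muscle markers than KO 03 (19157 against 15170 CPM) and less Klf15. The part of muscle tissue in the KO values was not tested. The log2 fold change was -4.05 (standard error 0.66, adjusted p = 0.00486, edgeR).

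Srebf1 (ENSMUSG00000020538, chromosome 11, 60199089 to 60222581, minus strand) was nearly constant in the KO pieces, at 166, 164 and 170 CPM, and had 215, 519, 548 and 468 CPM in KO+NM1 pieces. Piece 01 of the latter was only 1.29 times the KO mean. Its log2 fold change was -1.39 (standard error 0.31, adjusted p = 0.0112, edgeR), and -1.74 (adjusted p = 1.93e-05) without that piece. Reads were summed over all of its starts, so the forms SREBP1a and SREBP1c are not separated, and 109 of its exon bases are shared with Rai1 on the opposite strand.

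**Figure D3:**
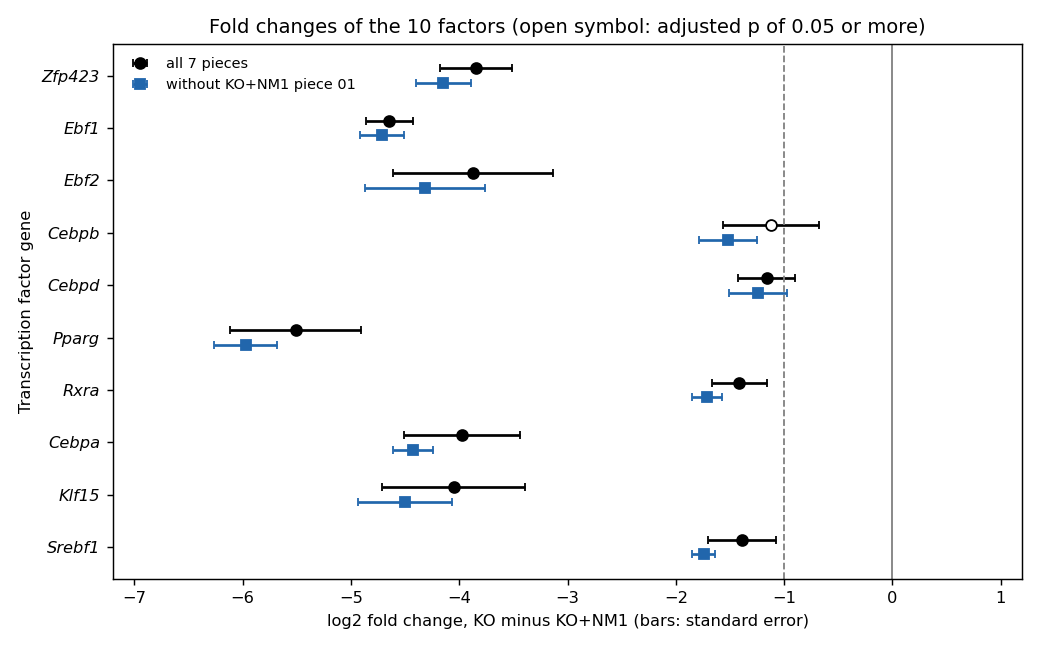
Log2 fold change (KO minus KO+NM1) of each factor with its standard error, from all 7 pieces (black circles) and without KO+NM1 piece 01 (blue squares), where an open symbol has an adjusted p of 0.05 or more and the dashed line marks a 2-fold fall. The only open symbol is Cebpb with all 7 pieces, and every estimate was farther from 0 without piece 01.

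In CPM per kilobase of merged exons, the order of the levels in KO pieces was Cebpb at 30.8 ± 7.49, Srebf1 at 29.6 ± 0.534, Cebpa at 23.4 ± 2.96, Rxra at 14.6 ± 2.51, Cebpd at 4.28 ± 1.04, Pparg at 1.26 ± 0.496, Klf15 at 1.07 ± 0.637, Ebf1 at 0.847 ± 0.262, Zfp423 at 0.455 ± 0.177 and Ebf2 at 0.249 ± 0.201 (SD, n = 3 each). The ranges of Cebpb and Srebf1 overlapped, as did those of each pair of neighbours from Pparg down to Ebf2, while Cebpa, Rxra and Cebpd overlapped with neither neighbour. In KO+NM1 pieces the order was Cebpa at 368 ± 198, Srebf1 at 77.6 ± 27.0, Cebpb at 66.9 ± 34.3, Pparg at 57.5 ± 32.2, Rxra at 39.0 ± 10.2, Ebf1 at 21.2 ± 1.69, Klf15 at 17.9 ± 9.26, Cebpd at 9.58 ± 2.30, Zfp423 at 6.55 ± 1.74 and Ebf2 at 3.66 ± 1.84 (SD, n = 4 each). Here the ranges of all neighbours overlapped except those of Rxra and Ebf1, since piece 01 widened most of them. Cebpa went from the third place to the first, Pparg from the sixth to the fourth and Ebf1 from the eighth to the sixth, while Cebpb went from the first to the third and Cebpd from the fifth to the eighth. With the longest transcript as the length, Srebf1 came before Cebpb and Ebf1 before Klf15 in KO pieces, and Pparg came before Cebpb in KO+NM1 pieces, so places next to each other depend on the length used.

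The difference between KO+NM1 piece 01 and pieces 02 to 04 divided the members. The mean over pieces 02 to 04 was 5.59 times the value in piece 01 for Pparg, 5.03 times for Cebpa, 4.93 times for Klf15 and 4.76 times for Ebf2. It was 3.15 times for Cebpb and 2.38 times for Srebf1, and 1.87 and 1.83 times for Zfp423 and Rxra. Ebf1 and Cebpd did not follow, at 0.861 and 0.891 times. Adipoq, the gene of the adipocyte hormone adiponectin, was 7.51 times higher in pieces 02 to 04 than in piece 01. These are ratios within 1 group, with a single library on one side, and no test was made.

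**Figure D4:**
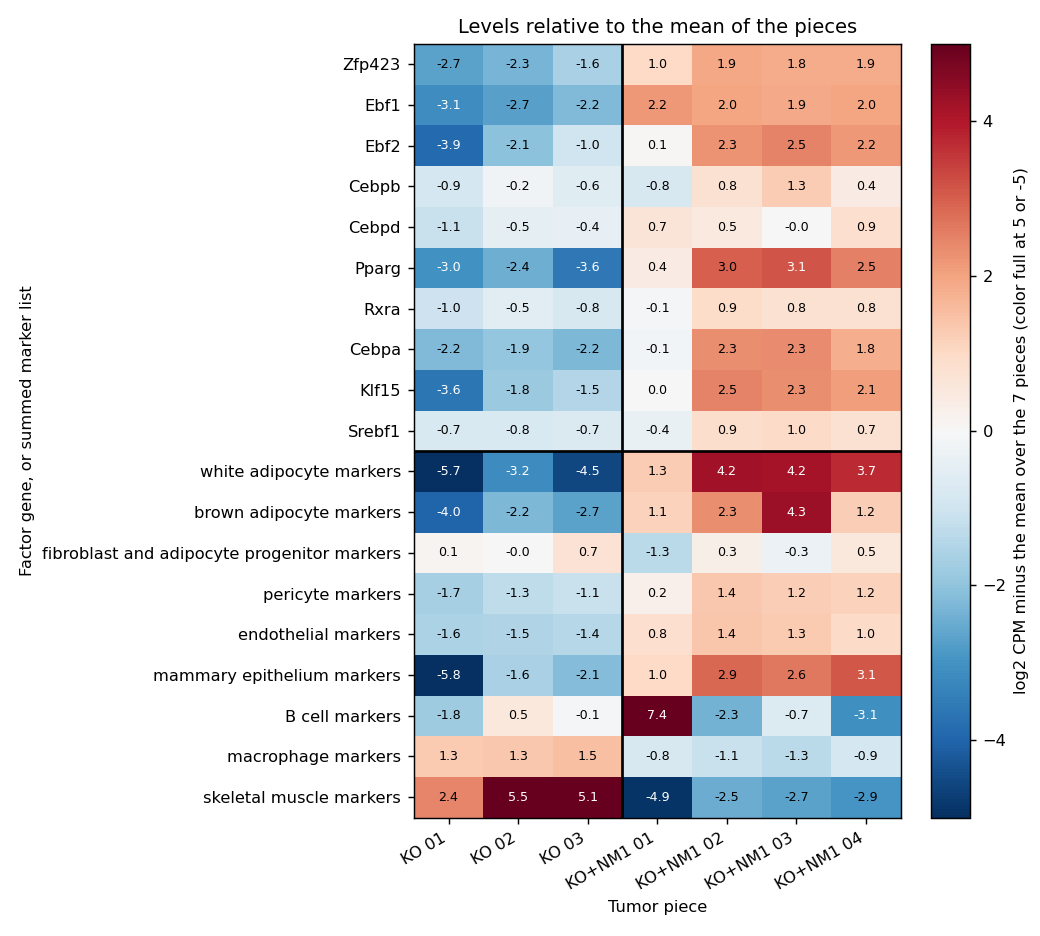
Log2 CPM minus the mean over the 7 pieces for the 10 factors (upper rows) and for the summed CPM of 9 marker lists (lower rows), with red above and blue below the mean and full color at 5 or more. White adipocyte, endothelial, pericyte and mammary epithelium markers were higher in the KO+NM1 columns like the factors, muscle and macrophage markers were lower there, and B cell markers stood out in KO+NM1 01.

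The sums of other marker lists moved with the members too. In the progenitor list most genes were lower in KO, as given with Ebf2, but its sums overlapped between the groups. The sum of 7 endothelial markers was 201 to 224 CPM in KO and 1082 to 1570 CPM in KO+NM1 pieces, and the sum of 6 mammary epithelium markers was 3.67 to 65.6 CPM and 405 to 1733 CPM, with Wap at or under 3 counts in every piece. Keratinocyte markers summed to 1218 CPM in KO 02 and to 3.86 to 420 CPM in the other pieces. Sebocyte and neutrophil markers, 2 lists of cells that can also express C/EBP factors, reached no more than 13.9 and 37.9 CPM in any piece. The part of these cell types in the levels of the factors was not tested.

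Profiles over the 7 pieces were compared as the root mean square difference in log2 CPM after the mean of each gene was subtracted, with a smaller value for more alike profiles. The closest pairs of members were Srebf1 and Rxra at 0.20 and Ebf2 and Klf15 at 0.23. Pparg was nearest to Cebpa, at 0.80, since it differed more between the groups than any other member, and Cebpa itself was nearest to Zfp423, at 0.59. The nearest member of Ebf1 was Zfp423 at 0.56, that of Cebpd was Rxra at 0.46 and that of Cebpb was Srebf1 at 0.33. Among 12283 genes with a mean of at least 5 CPM, those most like Pparg were Cmbl at 0.20, Proca1 at 0.23, Lipe at 0.24, Abcd2 at 0.26 and Adhfe1 at 0.27. Lipe encodes hormone-sensitive lipase and Abcd2 a peroxisomal fatty acid transporter. Lipe had 18.7, 28.3 and 19.4 CPM in KO pieces and 286, 1732, 1908 and 1219 CPM in KO+NM1 pieces. Its log2 fold change was -5.86, so that the step to piece 01 and the step to the other pieces were both close to those of Pparg.

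Relatives of the members in the same gene families moved less evenly. Of 10, 9 were tested. At both thresholds 5 were lower and none higher in KO tissue, against 20.3% and 17.1% of all genes tested. The list had a median log2 fold change of -1.30. The falls were those of Ppara, a receptor that drives fatty acid oxidation (-5.23), Rxrg (-2.87), Ebf4 (-1.97), Zfp521 (-1.43) and Ebf3 (-1.30). Ebf3 did not pass without KO 01, KO 03 or KO+NM1 02 (adjusted p = 0.0505 to 0.0666, edgeR). Ppara was at 0.100, 0.452 and 0.231 CPM in KO pieces and at 2.84, 6.39, 25.6 and 4.89 CPM in KO+NM1 pieces, with its highest value in piece 03, where brown adipocyte markers were also highest. Ppard and Srebf2, which are expressed in most cells, had log2 fold changes of 0.47 (adjusted p = 0.0584) and 0.67 (adjusted p = 0.067). Rxrb and Cebpg also did not pass, at -0.18 and -0.39, and Cebpe, the C/EBP gene of granulocytes, had too few reads to be tested. Without KO+NM1 piece 01, Ppard (0.45, adjusted p = 0.0136, edgeR) and Srebf2 (0.78, adjusted p = 0.00313) were higher in KO by the adjusted p alone. Cebpg was lower in that fit (-0.62, adjusted p = 0.00129), and each of these genes stayed under 2-fold.

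Among 16 other regulators that promote adipogenesis, 10 were lower and none higher, against 20.3% and 17.1% of all genes tested. The list had a median log2 fold change of -1.54. The largest falls were Prdm16 (-5.44, standard error 0.71), a coregulator of brown and beige fat, and Mlxipl (-4.78, standard error 0.78), the gene of the glucose-responsive factor ChREBP. Prdm16 had only 2, 12 and 21 reads in KO pieces, the first under 3 counts, and 191, 436, 539 and 435 reads in KO+NM1 pieces. It was not tested with a filter of at least 10 counts in every library. Mlxipl had 1.53, 9.84 and 6.70 CPM in KO pieces and 37.2, 168, 314 and 143 CPM in KO+NM1 pieces. The groups were separate, and piece 03 was the highest. The coactivators Ppargc1a (-2.99) and Ppargc1b (-1.65), the glucocorticoid-induced Klf9 (-2.60), Zfp467 (-1.84), Stat5a (-1.73), the oxysterol receptor gene Nr1h3 (-1.70), Klf4 (-1.42) and Tle3 (-1.01) were also lower. Klf4 did not pass without KO 01, KO 03 or KO+NM1 02, 03 or 04 (adjusted p = 0.0618 to 0.0818), and Ppargc1b did not pass without any 1 of KO 01 to 03 or without KO+NM1 02 (0.0528 to 0.092). Tle3 was within 2-fold with library size alone or voom (-0.84 and -0.88). Nr3c1, the glucocorticoid receptor gene, had an adjusted p of 0.00288 at a log2 fold change of -0.95. Med1, a Mediator subunit that binds PPARγ, went the other way, at 124, 107 and 111 CPM in KO pieces and 76.6, 48.2, 52.0 and 52.3 CPM in KO+NM1 pieces. Its log2 fold change was 0.99 (adjusted p = 0.00464, edgeR), just under 2-fold, and 1.04 without KO+NM1 piece 01, where it made 1 gene higher. Klf5, Egr2, Stat5b and Creb1 did not pass, with log2 fold changes of -0.09 to 0.37.

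Among the regulators that restrain adipogenesis, single genes stood on both sides. Of 17 tested, 1 was higher and 4 were lower in KO tissue, and the median log2 fold change was -0.43, or -0.20 without KO+NM1 piece 01. These counts lie near or under the shares over all genes, 20.3% lower and 17.1% higher, and are no result about the list. Wnt10b, a Wnt ligand that blocks the induction of Pparg and Cebpa, was at 22.8, 28.8 and 26.5 CPM in KO pieces and at 0.584, 2.64, 3.06 and 1.93 CPM in KO+NM1 pieces. Every KO piece was above every KO+NM1 piece, and piece 01 was the lowest. The log2 fold change was 3.66 (standard error 0.49, adjusted p = 0.00161, edgeR), and 3.23 without piece 01. Wnt10a, a related ligand, was measured at 12.2, 21.8 and 20.9 CPM in KO and at 10.2, 0.773, 0.692 and 3.00 CPM in KO+NM1 pieces (log2 fold change 2.31, adjusted p = 0.0757), and without KO+NM1 piece 01 it passed (3.48, adjusted p = 0.00154, edgeR), which gave 2 higher genes. In the same fit 6 were lower, with Nr2f2 (-1.12) and Hes1 (-1.21) added. The lower genes were Dlk1 (-4.99), which encodes the preadipocyte surface protein Pref-1, Gata3 (-2.94), Zfp521 (-1.43), an antagonist of Zfp423 and Ebf factors counted also among the relatives, and Tcf7l2 (-1.35). Dlk1 was low in all pieces, with at most 0.278 CPM in KO and 1.60 to 6.45 CPM in KO+NM1 pieces. Gata3 is also expressed by mammary epithelium, whose markers were higher in the KO+NM1 pieces, and the part of those cells was not tested. Below 2-fold, Nr2f2 (-0.96) and Hes1 (-0.95) were lower and the corepressor Ncor1 (0.91) and the deacetylase gene Sirt1 (0.87) were higher by the adjusted p alone (0.00146 to 0.0224), a rule by which 24.5% of all genes were lower and 25.7% higher. With library size alone the restraining regulators had 4 higher genes, and that scaling moved the median of all genes up by 0.17 on the log2 scale.

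**Figure D5:**
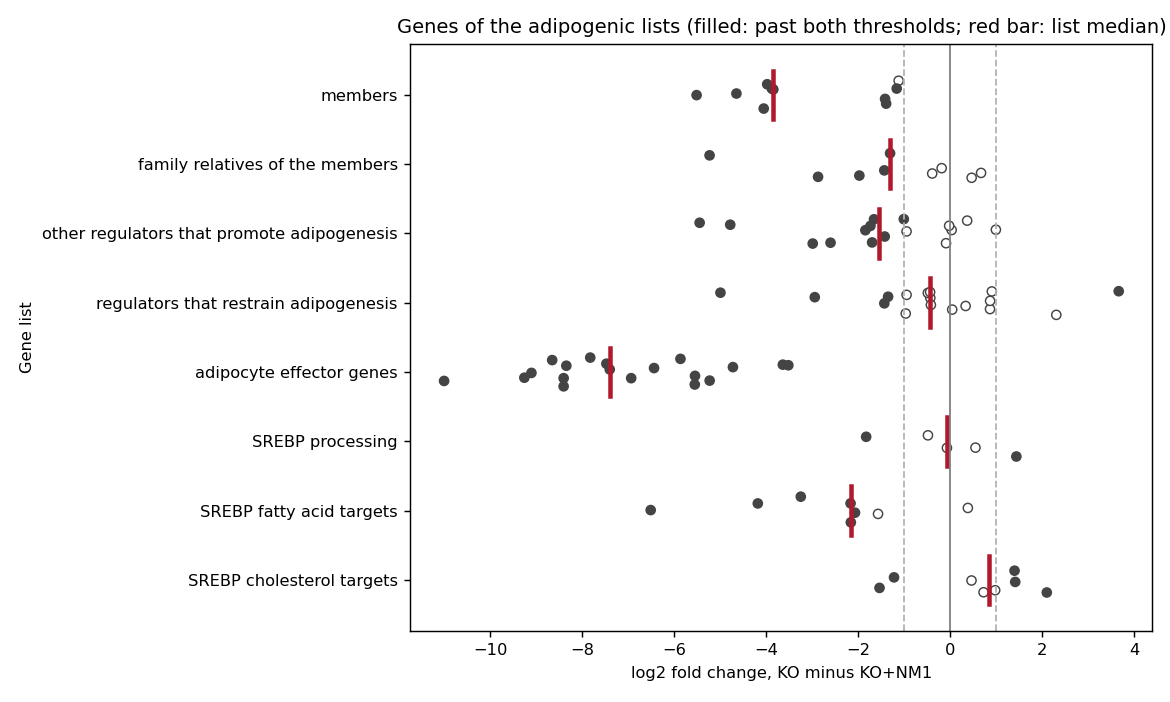
Log2 fold change (KO minus KO+NM1) of each tested gene in 8 lists, with filled points past both thresholds, open points not, and a red bar at the list median. Members, effector genes and fatty acid targets lie mostly to the left of 0, the restraining regulators spread to both sides around a median of -0.43, and the cholesterol targets have a median of 0.85.

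The adipocyte effector genes are mostly known PPARγ or C/EBPα targets for lipid storage, lipolysis and hormones. All 19 of 19 were lower, against 20.3% of all genes tested, with a median log2 fold change of -7.40. With a filter of at least 10 counts in every library, 16 were lower. Lep, Pck1 and Cidea were not tested there. Genes with so few reads in some pieces can enter the test through the KO+NM1 pieces alone. A fall in KO is then fixed in advance and is no result. The largest falls were Pck1 (-11.0), which supplies glycerol for triglyceride in fat cells, and Lep (-9.25), the gene of leptin. Pck1 was at 0.0333, 2.33 and 0.198 CPM in KO pieces and at 333, 2469, 2575 and 1612 CPM in KO+NM1 pieces. Its value in KO 01 is under the level of 3 counts (0.100 CPM), so the size of the fall is uncertain. Over the alternatives the log2 fold change ran from -13.9 to -10.5 for Pck1 and from -12.6 to -8.78 for Lep. The smallest fall of the list was -3.52, against a median of -3.86 for the 10 factors. This list holds the 8 white adipocyte markers used above and is not separate evidence from them.

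Genes around SREBP1 were taken in 3 lists. Of 8 fatty acid targets, 6 were lower and none higher, against 20.3% and 17.1% of all genes tested. Their list had a median log2 fold change of -2.16. Its largest falls were Scd1 (-6.51) and Fasn (-4.18), the genes of stearoyl-CoA desaturase and fatty acid synthase. Fasn was at 623, 404 and 380 CPM in KO pieces and at 2216, 8349, 16670 and 6770 CPM in KO+NM1 pieces. Only 3 of these targets were lower when any 1 of the KO pieces 01, 02 or 03 was left out, with Me1, Acaca and Elovl6 then at adjusted p of 0.0564 to 0.0915. Of 8 cholesterol targets, which are mainly driven by SREBP2, 3 were higher and 2 lower, with a median of 0.85, or 0.55 without KO+NM1 piece 01. Over all genes tested 20.3% were lower and 17.1% higher. The 2 lower are near that share and the 3 higher are above it. In 5 of the 8 every KO piece was above every KO+NM1 piece, which held for 30.5% of all genes, and in 0 was it the reverse. With so few genes, no direction is read from these counts. Among the higher genes was Sqle (1.40), which encodes squalene epoxidase. The lower genes were Hmgcs1 (-1.53) and Fdft1 (-1.22), but in both KO+NM1 piece 01 lay at the KO level. Neither passed without KO 01, 02 or 03 or without KO+NM1 02 or 03 (adjusted p = 0.0508 to 0.11), and Fdft1 also did not without KO+NM1 04. Of the 5 genes that hold or cleave SREBP proteins, Mbtps2 (site-2 protease) was higher (1.44) and Insig1, which retains SREBP in the endoplasmic reticulum, was lower (-1.82), 1 gene each way, which is near the shares over all genes. Insig1 did not pass without any 1 of the KO pieces or without KO+NM1 02 (adjusted p = 0.0576 to 0.0704).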

How the data were processed

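RNA-seq libraries of 3 KO and 4 KO+NM1 tumor pieces, made with the NEBNext Ultra II RNA kit, were analysed. The authors trimmed reads with Trimmomatic 0.36, assessed them with FastQC, aligned them to GRCm38 with HISAT2 2.0.4, sorted them with SAMtools 0.1.19 and counted them per gene with HTSeq. The annotation release and strand option of the counting are not given in the sources used here. The deposited values are raw counts per Ensembl gene, not normalized, with totals of 24088309 to 28326568.

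Symbols came from GENCODE M21. In R 4.3.3, genes kept by filterByExpr of edgeR 4.0.16 (minimum count 10) were normalized by TMM and compared with the quasi-likelihood test as KO minus KO+NM1. P-values were adjusted by Benjamini-Hochberg over 16887 genes. A gene was called at an adjusted p under 0.05 and an absolute log2 fold change of at least 1. Gene lists are described by counts and medians without a set test. Tables and figures used Python 3.11.15, pandas 2.3.3 and matplotlib 3.10.9. Named genes were the members, up to 2 largest rises and 2 largest falls of each list past both thresholds, regulators and relatives with an adjusted p under 0.05, and the nearest profiles (log2 CPM, prior count 2). A few genes named by it are not reported here. Named outside this rule, after their values were seen, were genes that missed a threshold or lost their call in an alternative. The members and lists were chosen with earlier results of these data known.

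Alternatives were DESeq2 size factors, upper-quartile factors, library size alone, mitochondrial genes left out, 2 other filters, the Wald test of DESeq2 1.42.0, voom with quality weights in limma 3.58.1, glmTreat, no fold threshold, a block for the replicate number, the longest transcript as length, and each library left out. No library was a repeat of another of its group (chi-square per degree of freedom of 35.2 to 687 over genes with at least 20 counts). In simulated counts of 16604 genes, 79 were changed 2-fold, 67 were changed 4-fold and 50 were changed 8-fold. The adjusted p alone called 3.8%, 40.3% and 90% of these, and 2.6% of its calls were false. A gene that did not pass may therefore still differ. Far more genes differed in the real data, so these rates may not carry over to it.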

Additional observations from a re-analysis of the deposited data

Results flagged for a closer look

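Among 20 values tested in the 4 KO+NM1 pieces, 7 had a piece whose gap to the nearest of the others, divided by the range of the group, was above Dixon's 95% critical value, where chance gives about 1 in 20. In all 7 the piece that stood apart was KO+NM1 01, and it was the lowest. For the factors, the gap took 0.899 of the range in log2 CPM of Zfp423, 0.879 of that of Ebf2, 0.846 of that of Rxra, 0.832 of that of Klf15 and 0.831 of that of Srebf1. For Zfp423 the 4 log2 CPM values were 4.48, 5.44, 5.34 and 5.36 in pieces 01 to 04, and for Ebf2 they were 2.75, 4.94, 5.14 and 4.85. The median log2 CPM of the promoting regulators (0.852 of the range) and of the SREBP processing genes (0.893 of the range) stood apart in the same piece. Pparg and Cebpa had the same piece lowest but stayed under the critical value, at 0.771 and 0.792, because pieces 02 to 04 were also spread. These 20 values come from the same 4 libraries and are not independent. Piece 01 also differed in B cell markers, at 5615 CPM against 4.03 to 20.9 CPM in pieces 02 to 04, and the part of these cells in the lower factor levels was not tested.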

How the results depend on the processing

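The log2 fold changes of all 10 factors stayed negative in 16 alternative settings. The adjusted p stayed under 0.05 in all 16 for 7 factors, in 15 for Cebpd and Srebf1 and in 3 for Cebpb. With voom Cebpd kept its adjusted p but was under 2-fold (-0.99), so that the 9 lower factors there include Cebpb and not Cebpd. Lower restraining regulators numbered 4 to 6 over the alternatives, against 4. The 3 settings in which Cebpb passed were DESeq2's Wald test (-1.23), voom (-1.25) and leaving out KO+NM1 replicate 1 (-1.52), and its log2 fold changes with 1 piece left out ran from -1.52 to -0.81. The number of factors lower at both thresholds was 9 with all pieces and 6 with glmTreat, where 12.3% of genes were lower. With the replicate number as a block, 7 factors were lower, where 14.8% of genes were. Under this replicate block Cebpd had a log2 fold change of -1.04 (adjusted p = 0.0756) and Srebf1 of -1.25 (adjusted p = 0.0628). Deviations of same-numbered pieces correlated at 0.08, 0.10 and -0.02, and those of differently numbered pieces at -0.12 to 0.11. With so few pieces, these correlations cannot decide whether same-numbered pieces share more than a number. The block also left 0 lower SREBP processing genes against 1, 3 lower fatty acid targets against 6, and 0 lower cholesterol targets against 2. Library size alone gave 1 higher promoting regulator against 0, 4 higher restraining regulators against 1 and 1 lower cholesterol target. Voom gave 1 higher promoting and 2 higher restraining regulators, and DESeq2's Wald test 2 higher restraining regulators. With 1 piece left out in turn, higher promoting regulators numbered 0 to 1, higher restraining regulators 1 to 2, lower SREBP processing genes 0 to 1, lower fatty acid targets 3 to 7 and lower cholesterol targets 0 to 2. The fits that left one out had fewer pieces, and the cause of these changes was not tested. Scaling moved the median log2 fold change of all genes by 0.17 with library size alone and by -0.16 with upper-quartile factors. With voom, which used the same TMM factors as the main fit, the median moved by 0.12. All tests rest on 3 against 4 pieces, and 13 to 97 reads of Ebf2 in KO pieces limit its precision.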
